A study of Mus musculus with 2 samples.

Results

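Chemokines, interleukins and the receptors that bind them were followed across the 12 cell clusters of an irradiated mouse colon. The group was chosen by gene symbol: every gene named Ccl, Cxcl, Ccr or Cxcr with a number, and every gene named Il with a number, interleukin receptor chains included. This gave 85 of the 17044 genes measured, and 5 of them, Cxcl2, Il1b, Ccl5, Ccl6 and Cxcr2, are followed most closely. Single cells labelled as colon epithelium came from wild type mice of the C57BL/6 strain, taken 2 weeks past an exposure to radiation, and formed 1 group of 2 libraries. The study's title concerns transplantation of colonoids, organoids grown from colon crypts, for radiation injury of the rectum. Both libraries carry the same sample name apart from the library number. The labels do not say which cells came from a graft, how many mice were used or how the cells were isolated, and mice without irradiation or without a transplant were not analysed here.

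Chemokines are small secreted proteins that steer leukocytes along a gradient by binding receptors of the G protein coupled class. The CXC ligands Cxcl1, Cxcl2, Cxcl3 and Cxcl5 draw neutrophils through Cxcr2, and CC ligands such as Ccl2, Ccl3 and Ccl5 draw monocytes, T cells and other leukocytes. Interleukins carry signals between leukocytes and between leukocytes and epithelium: IL-1 alpha and IL-1 beta drive inflammation through NF-kappaB, while IL-18 is known as a cytokine stored in colon epithelial cells.

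Each value was a mean over the cells of a cluster, in UMIs (counted RNA molecules) per 10000 UMIs of a cell, made by the authors from both libraries pooled. No column names a library, so there was no replicate, no test was possible, and differences are described by size. The intervals are exact Poisson 95% intervals from approximate UMI numbers, they cover counting error only, and where a gene is at 0 up to 3 UMIs could have been missed. The authors drew the clusters from these same values, so a level that sets a cluster apart describes it and is not independent support for it. The arithmetic of the averages gave 3082 cells in all, and the UMI totals of 2604 of them (84.5%) had a median of 12001. The labelled epithelium was not the whole of the sample. Cluster 5, with 274 cells and a median of 1427 UMIs, was neutrophil-like, with 7 of 8 neutrophil markers highest there. Cluster 10, with 31 cells and a median of 8118 UMIs, had the highest level of all 12 macrophage or dendritic cell markers, of all 8 markers of T or NK cells and of 5 of 8 mast cell markers, and was left unnamed. Marker genes made cluster 0 goblet-like, cluster 7 proliferating-like, cluster 8 colonocyte-like and cluster 11, with 19 cells, enteroendocrine-like. The 10 clusters other than 5 and 10 are called epithelial here: the 6 pan-epithelial markers summed to 88.8 to 235 per 10000 in them, against 31.2 and 17.3 in clusters 5 and 10, and the 6 pan-leukocyte markers to 0.0938 to 8.19, the highest in cluster 2, against 156 and 92.2. The unnamed ones are given by number, and cluster 6, with a median of 2430 UMIs, was shallow and also held 3 of 5 B and plasma cell markers and 3 of 5 tuft cell markers at their highest.

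The neutrophil-attracting genes Cxcl1, Cxcl2 and Cxcl3 lie in a cluster of genes on chromosome 5 with 10777 bases between Cxcl1 and Cxcl2, 103151 between Cxcl3 and Cxcl1, and 24475 between Cxcl5 and Cxcl3, and Ccl9 and Ccl6 lie on chromosome 11 with 9249 bases between them. Promoter sequence (RefSeq, build GRCm38.p6) ending at the base before the annotated start is shown for Cxcl1, Cxcl2, Cxcl3, Ccl9 and Ccl6, because genes of both loci were compared across clusters. Capitals mark matches to the kappaB consensus, the motif bound by NF-kappaB, on either strand. The windows are chr5:90903779-90903898 for Cxcl2, chr5:90891125-90891244 for Cxcl1 and chr5:90785981-90786100 for Cxcl3, all on the plus strand, and chr11:83578637-83578756 for Ccl9 and chr11:83593088-83593207 for Ccl6, both on the minus strand.
Cxcl2: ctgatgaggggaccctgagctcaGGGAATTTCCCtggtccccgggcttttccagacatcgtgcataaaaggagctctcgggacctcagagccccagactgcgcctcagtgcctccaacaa
Cxcl1: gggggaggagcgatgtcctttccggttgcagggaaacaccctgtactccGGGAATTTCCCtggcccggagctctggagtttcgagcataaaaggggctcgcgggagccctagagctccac
Cxcl3: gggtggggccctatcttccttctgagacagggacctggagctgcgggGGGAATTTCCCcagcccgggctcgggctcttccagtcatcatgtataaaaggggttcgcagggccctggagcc
Ccl9: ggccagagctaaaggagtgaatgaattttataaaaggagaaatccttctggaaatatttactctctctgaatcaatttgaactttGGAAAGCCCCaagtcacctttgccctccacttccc
Ccl6: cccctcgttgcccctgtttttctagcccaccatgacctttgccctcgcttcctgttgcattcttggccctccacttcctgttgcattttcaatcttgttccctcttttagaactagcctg
In Cxcl2, Cxcl1 and Cxcl3 the capitals cover the same decamer, GGGAATTTCC, on the gene's strand and an overlapping match on the other strand, and the decamer starts 97, 71 and 73 bases before the start in this order. The match of Ccl9 was on the other strand, 35 bases before the start, and Ccl6 had none in the window. Promoter windows were held for 63 of the 85 genes. The kappaB consensus was found for 11 of these 63 genes (17.5%), against 5.14% of 27025 mouse genes with windows of the same length, which reach somewhat past the start as well. The AP-1 motif TGANTCA was found for 13 of 63 (20.6%), against 8.97%. The decamer was read from the windows of the related genes Cxcl1, Cxcl2 and Cxcl3, so its presence there is no separate count, and Il16 was the other gene of the group with it. All motifs were searched on both strands, and a decamer match is also a kappaB match. A match describes letters and is not evidence of a bound site.

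The genes of the group were highest mainly in the leukocyte clusters 5 and 10. The highest level lay in cluster 5 for 27 of the 85 genes (31.8%, against 7.76% of all genes) and in cluster 10 for 25 (29.4%, against 8.84%), together 52 of 85 (61.2%, against 16.6%). The group was also abundant for its size: 32 of 85 genes (37.6%, against 19.2% of all genes) reached 1 per 10000 in some cluster, and 9 (10.6%, against 2.41%) reached 10. A gene was called leading in a cluster when its level there was no less than 1 per 10000 and exceeded every other cluster by a factor of 2 or more, with 0.1 added to each value. By this measure 25 of 85 genes led a cluster (29.4%, against 4.5% of all genes), which was 25 of the 32 genes that reached 1 per 10000 (78.1%, against 23.4% of all genes at that level): 14 in cluster 5 (16.5%, against 1.45%), 10 in cluster 10 (11.8%, against 0.716%) and 1, Il12a, in cluster 11 (against 1.15%). None of the 85 led any of the other 9 clusters, which 1.19% of all genes did, so that 0 is near the background. In cluster 5, 28 of the genes were 2-fold or more over the average of the remaining clusters (32.9%, against 5.13% of all genes) and 12 at least 2-fold below it (14.1%, against 19.4%). In cluster 10 the same counts were 29 (34.1%, against 5.77%) and 11 (12.9%, against 13.2%), so the share of low genes there was close to that of all genes. The median difference from the mean of the others was 0.17 log2 units in cluster 10 (all genes -0.14) and -0.06 in cluster 5 (all genes -0.26), while in the other 10 clusters it lay between -0.51 and -0.27 (all genes -0.11 to -0.01). In all, 65 of 85 genes (76.5%) reached 0.1 per 10000 in some cluster, near the 69.6% of all genes. A cluster mean cannot tell a few cells with much RNA of a gene from many cells with little, and the cells of origin were worked out where the arithmetic allowed. The median UMI total of cluster 5 was the lowest of the 12 clusters, and the part of this depth in the differences was not tested.

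**Figure D1:**
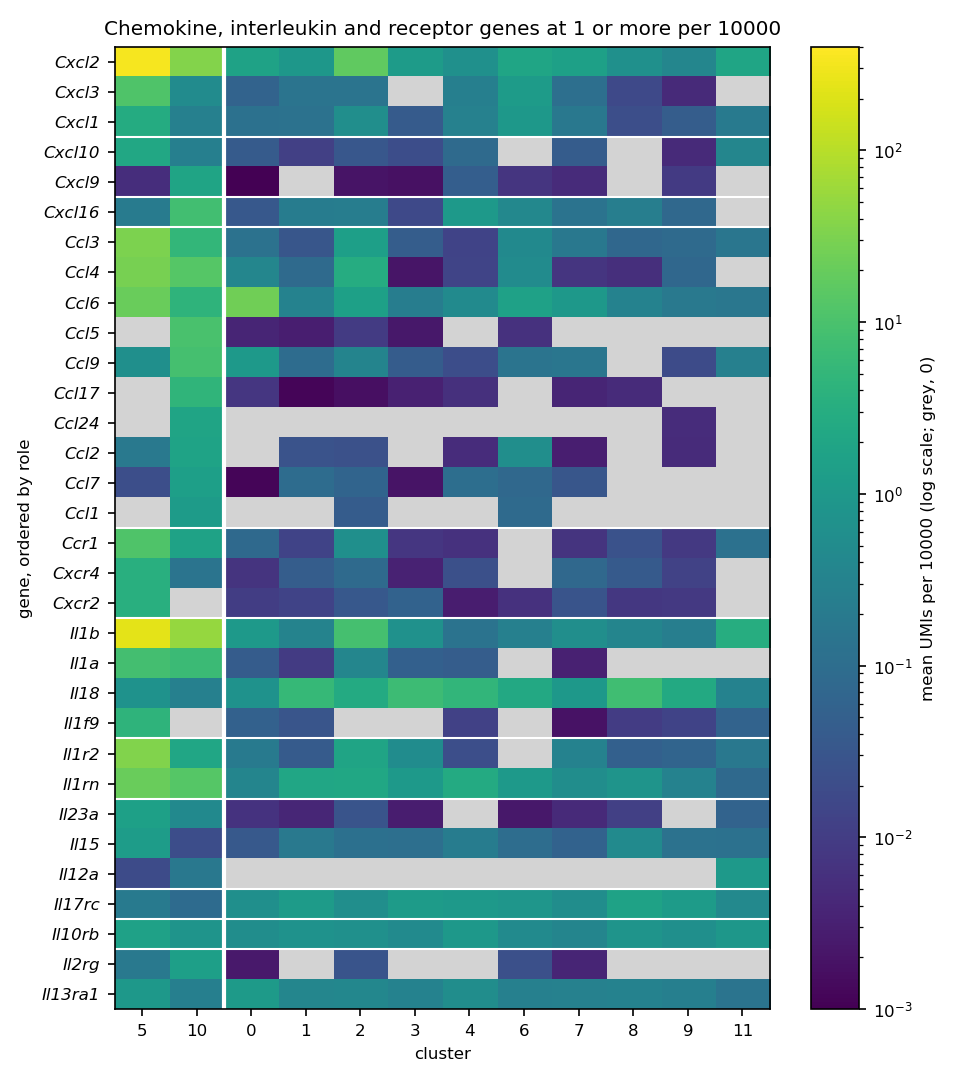
Level of the 32 genes that reached 1 per 10000, one row per gene in order of role, one column per cluster with the leukocyte clusters 5 and 10 to the left of the white line. Colour gives mean UMIs per 10000 on a log scale and grey marks 0. The brightest squares are Cxcl2 at 343 and Il1b at 241 in cluster 5, Ccl6 is bright in clusters 0 and 5, and Il18 and Il17rc are brighter in several columns on the right than on the left.

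Of the neutrophil-attracting chemokines, Cxcl2 and Cxcl3 were concentrated in the neutrophil-like cells, Cxcl1 was spread more widely, and Cxcl5 was highest in an epithelial cluster. Cxcl2 stood at 343 per 10000 in the neutrophil-like cells (interval 337 to 349) and at 36.5 in cluster 10 (34.0 to 39.2), against 0.366 to 17.0 with a median of 1.36 in the other 10 clusters. Cluster 5 was 9.37-fold above cluster 10, the next highest. Cluster 2, which had the 17.0, also held neutrophil markers at a median of 3.12% of their level in the neutrophil-like cells, as set out further on. Cxcl3, its close relative, stood at 11.6 in the neutrophil-like cells (10.5 to 12.8), against 1.21 in cluster 6 (0.908 to 1.58), 0.503 in cluster 10 and at most 0.257 elsewhere. Cxcl3 in cluster 1 came almost wholly from 1 cell: a cell of 12859 UMIs held 74 of its 75 UMIs. Cxcl1, the third ligand of the locus, stood at 2.81 in the neutrophil-like cells (2.29 to 3.42), 0.96 in cluster 6 (0.694 to 1.29) and 0.588 in cluster 2, against 0.0217 to 0.283 elsewhere, so its range over clusters was narrower than that of Cxcl2. Cxcl5, a ligand of the same receptor, was highest in cluster 4 at 0.642 (0.519 to 0.785) and in the proliferating-like cells at 0.307. It was 0.0071 in the neutrophil-like cells, where 4 UMIs in 1 cell of 20557 UMIs gave the whole value, and 0 in cluster 10. That cell, far deeper than the median of its cluster, also carried all 3 Cxcl9 UMIs of the neutrophil-like cells.

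The inflammatory CC chemokines split between the leukocyte clusters. Ccl3 and Ccl4, which attract monocytes and T cells, were highest in the neutrophil-like cells. Ccl3 stood at 32.0 there (30.2 to 34.0) and at 5.03 in cluster 10, against 0.0134 to 1.43 in the other 10 clusters. Ccl4 stood at 28.8 in the neutrophil-like cells (27.1 to 30.6) and at 13.4 in cluster 10 (11.9 to 15.1), against 0 to 2.94 elsewhere, so cluster 5 exceeded cluster 10 by 2.14-fold. A further 8 of the 12 genes of this class were highest in cluster 10 (against 8.84% of all genes). Among them, Ccl1, Ccl7, Ccl22 and Ccl24 rested there on 2 or 3 cells each. Ccl5, a T and NK cell and macrophage chemokine, was there at 9.64 (8.37 to 11), against 0 to 0.00939 in the other 11 clusters. It was 0 in the neutrophil-like cells, which allows up to 0.084. Ccl9, a macrophage chemokine, was at 8.87 in cluster 10 (7.66 to 10.2), against 1.02 in the goblet-like cells and 0.618 in the neutrophil-like cells. Ccl17, a ligand made by dendritic cells, was at 4.68 in cluster 10 (3.81 to 5.68), against at most 0.00781 elsewhere. Ccl24, an eosinophil attractant, was at 1.9 in cluster 10, with a trace of 0.00516 in cluster 9 and none in the other 10 clusters. Ccl2 and Ccl7, ligands of Ccr2, were at 1.75 and 1.43 in cluster 10. Ccl1 and Ccl22, ligands of receptors on T helper cells, were at 1.17 and 0.297 there, and Ccl22 was 0 in the other 11 clusters. Ccl8 stayed at or under 0.0125 in all clusters.

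Ccl6 was the member with the highest level in an epithelial cluster. It stood at 24.4 in the goblet-like cells (24.0 to 24.9, about 11421 UMIs) and at 21.5 in the neutrophil-like cells (20 to 23.1, about 768 UMIs), against 4.45 in cluster 10 (3.6 to 5.43), 1.6 in cluster 6 and 0.166 to 1.51 in the remaining clusters. Clusters 0 and 5 differed 1.13-fold, with intervals that did not meet. Its neighbour Ccl9 had the other order, with 8.87 in cluster 10, against 1.02 in the goblet-like cells (0.926 to 1.11) and 0 to 0.618 in the others. S100a8, S100a9 and the other neutrophil markers apart from Ly6g stood in the goblet-like cells at 0.269% to 0.626% of their cluster 5 level, while Ccl6 in the goblet-like cells was above its cluster 5 level. In the enteroendocrine-like cells, 5 of 6 Ccl6 UMIs and all 13 Ccl9 UMIs lay in 1 cell of 25382 UMIs, and that cell also held 5 of 12 Fcgbp, 3 of 7 Spdef and all 14 Birc5 UMIs of the cluster, genes of goblet cells and of mitosis.

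Chemokines of mucosa and skin were low, and all 4 were highest in epithelial clusters. Only 16.6% of all genes were highest in clusters 5 and 10, so this count is near the background. Ccl28, which recruits IgA plasma cells to mucosae, was highest in cluster 3 at 0.741 (0.648 to 0.844) and in the colonocyte-like cells at 0.605 (0.453 to 0.791), against 0.144 in the neutrophil-like cells and 0.0255 in cluster 10. Ccl20, the ligand of Ccr6 that draws lymphocytes and dendritic cells to crypts, was highest in cluster 2 at 0.672 (0.567 to 0.792) and next in cluster 1 at 0.376 (0.309 to 0.454). It was 0.0565 in cluster 3, 0.00597 in the colonocyte-like cells and 0.00787 in cluster 9, and was 0 in clusters 10 and 11. Ccl28 and Ccl20 were thus highest in different epithelial clusters. Ccl25 and Ccl27a, chemokines of the small intestine and of skin, stayed at or under 0.119 and 0.179. Ccl25 did not separate the cell types, with 0.0432 in the neutrophil-like cells and 0.039 in cluster 10, against 0 to 0.119 in the epithelial clusters. Ccr10, the receptor of Ccl28 on plasma cells, was seen in cluster 6 at 0.0266, all of it 17 UMIs in 1 cell of 25479 UMIs that also held the 9 Cd79a and the 9 Cd79b UMIs of the cluster, both genes of the B cell receptor.

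Cxcl16, Cxcl9 and Cxcl10 each led a leukocyte cluster. Cxcl16, a transmembrane ligand of Cxcr6, stood at 8.11 in cluster 10 (6.95 to 9.41), while cluster 4 had 1.06 (0.897 to 1.23), with 0.212 in the neutrophil-like cells and at most 0.418 in the others. The interferon-induced ligands of Cxcr3 divided: Cxcl10 was highest in the neutrophil-like cells at 2.31 (1.84 to 2.86), against 0.256 in cluster 10, while Cxcl9 was highest in cluster 10 at 1.85 (1.32 to 2.51), against 0.00533 in the neutrophil-like cells. Cxcl11 was detected in the neutrophil-like cells at 0.154, against 0.0303 or less elsewhere. Cxcl14 was found in cluster 10 at 0.808 and in the enteroendocrine-like cells at 0.0771, with 0 in the other 10 clusters.

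Most chemokine receptors were highest in the leukocyte clusters. Cxcr2, the receptor of Cxcl1, Cxcl2 and Cxcl5, stood at 3.41 in the neutrophil-like cells (2.83 to 4.07), against 0.00282 to 0.0575 in 9 other clusters and 0 in clusters 10 and 11. A value of 0 in cluster 10 allows up to 0.139. Ccr1, a receptor of Ccl3, stood at 11.2 in the neutrophil-like cells (10.1 to 12.4) and at 1.67 in cluster 10 (1.17 to 2.31), while cluster 2 had 0.613 and no other cluster more than 0.124. Cxcr4, the receptor that retains leukocytes in bone marrow, stood at 3.48 in the neutrophil-like cells (2.89 to 4.15), against 0.141 in cluster 10 and at most 0.0848 elsewhere. Cxcr1, next to Cxcr2 on chromosome 1, was at 0.339 in the neutrophil-like cells and 0.00137 in the goblet-like cells and 0 elsewhere. Ccr2 and Ccr7, receptors of monocytes and of migrating dendritic cells, were found in cluster 10 at 0.775 and 0.24 and were each 0 in the neutrophil-like cells. Outside clusters 5 and 10, some receptor values came from single cells. In cluster 3, a cell of 16801 UMIs held 2 of 4 Ccr1 UMIs, both Cxcr4 UMIs and 3 of 5 UMIs of the neutrophil receptor Csf3r. Of the 10 chemokine receptors, 4 were highest in the neutrophil-like cells (against 7.76% of all genes) and 4 in cluster 10 (against 8.84%), and the other two, Ccr10 and Cxcr5, stayed at or under 0.0266.

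Of the 6 IL-1 family cytokines, Il1b and Il1a were high in both leukocyte clusters and Il1f9 in the neutrophil-like cells, while Il18 and Il33 were highest in epithelial clusters. Il1f6 could not be placed: its highest level, 0.01 in the colonocyte-like cells, was 1 UMI in 1 cell of 5069 UMIs. That cell also held 7 of 8 Ccl3 and 2 of 3 Ccr1 UMIs of its cluster. Il1b stood at 241 in the neutrophil-like cells (236 to 246) and at 52.9 in cluster 10 (49.8 to 56.0), against 0.135 to 8.86 with a median of 0.473 in the other 10 clusters. Il1bos, an antisense gene of the Il1b locus, was at 0.104 in the neutrophil-like cells and 0.0629 in cluster 10, and since the strand used in counting is not given, its reads cannot be told apart from those of Il1b. Il1a, IL-1 alpha, stood at 8.27 in the neutrophil-like cells (7.36 to 9.27) and at 6.43 in cluster 10 (5.4 to 7.6), against 0 to 0.374 elsewhere, so its intervals in the 2 clusters overlapped. Il1f9, also called Il36g, an IL-36 cytokine of barrier tissues, was at 4.38 in the neutrophil-like cells (3.72 to 5.12) and 0 in cluster 10, against at most 0.0622 elsewhere. Inhibitors of IL-1 were also highest in the neutrophil-like cells. Il1r2, the decoy receptor, was at 34.7 in the neutrophil-like cells (32.8 to 36.7), against 2.06 in cluster 10, 1.91 in cluster 2 and at most 0.539 elsewhere. Il1rn, the receptor antagonist, was at 21.1 in the neutrophil-like cells (19.7 to 22.7) and 13.3 in cluster 10 (11.8 to 14.9), and it was also found in epithelial clusters, with 2.63 in cluster 4 (2.37 to 2.9), 2.15 in cluster 2 and 2.08 in cluster 1, against 0.0832 in the enteroendocrine-like cells. The signalling receptor Il1r1 was scarce, at or under 0.0761 in every cluster.

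Il18 was highest in epithelial clusters. It stood at 7.75 in the colonocyte-like cells (7.18 to 8.35), 6.88 in cluster 3 (6.59 to 7.18), 5.75 in cluster 1 (5.48 to 6.04) and 4.79 in cluster 4 (4.44 to 5.16), against 0.712 in the neutrophil-like cells (0.461 to 1.05) and 0.281 in cluster 10 (0.103 to 0.612). Among epithelial clusters it was lower in the goblet-like cells at 0.711, in the proliferating-like cells at 0.979 and in the enteroendocrine-like cells at 0.3. Its receptor chains were low: Il18rap stood at 0.567 in the neutrophil-like cells, against 0.0818 in cluster 10 and at most 0.00976 elsewhere, and Il18r1 at or under 0.00696 in every cluster. Il18bp, the secreted inhibitor of IL-18, was at 0.206 in cluster 10 and 0.192 in cluster 4. Il33, an alarmin of barrier tissues, stayed at or under 0.0723, and its receptor Il1rl1 was highest in cluster 10 at 0.193.

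Il17rc, Il17re and Il13ra1, receptor chains for IL-17 cytokines and IL-13, were highest in epithelial clusters. Il17rc, the chain that pairs with Il17ra to bind IL-17A and IL-17F, stood at 1.65 in the colonocyte-like cells (1.39 to 1.94) and at 0.443 to 1.2 in the other epithelial clusters, against 0.205 in the neutrophil-like cells and 0.0898 in cluster 10. Il17ra was instead highest in the neutrophil-like cells, at 0.819 (0.548 to 1.18), against 0.294 in the colonocyte-like cells and 0.121 in cluster 10. Il17re, which lies 696 bases from Il17rc, ranged from 0.111 in the goblet-like cells to 0.373 in cluster 3 over the epithelial clusters, against 0.149 in the neutrophil-like cells and 0.0127 in cluster 10. Il13ra1, a receptor chain of IL-13, was at 1.14 in the goblet-like cells (1.05 to 1.24) and at 0.989 in the neutrophil-like cells (0.689 to 1.38), with intervals that overlapped, against 0.143 to 0.554 elsewhere. Il4ra, its partner chain, was at 0.939 in the neutrophil-like cells, 0.698 in cluster 10 and 0.62 in cluster 4, and 0.185 in the goblet-like cells. Il10rb, the shared chain of the IL-10 and IL-22 receptors, was found in all clusters, with 1.58 in the neutrophil-like cells (1.19 to 2.05) and 0.363 to 0.959 in the other 11 clusters. Il22ra1, the chain that makes cells responsive to IL-22, stayed at or under 0.0465. Il10ra was at 0.855 in the neutrophil-like cells and 0.26 in cluster 10, against at most 0.0696 elsewhere. The common gamma chain Il2rg, shared by receptors of lymphocyte growth cytokines, was at 1.42 in cluster 10 (0.964 to 2.01), against 0.185 in the neutrophil-like cells and at most 0.0289 elsewhere, and Il21r was seen in cluster 10 alone of the 12 clusters, at 0.442.

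Among other interleukins, Il23a, the IL-23 subunit that maintains Th17 cells, was at 1.56 in the neutrophil-like cells (1.18 to 2.03) and 0.464 in cluster 10, against at most 0.0622 elsewhere. Il15, a growth factor of NK and intraepithelial T cells, was at 1.27 in the neutrophil-like cells (0.926 to 1.7) and 0.483 in the colonocyte-like cells (0.35 to 0.651), against 0.0213 in cluster 10. Il34, a ligand of the macrophage receptor Csf1r, was epithelial and low, with 0.244 in cluster 4, 0.231 in cluster 3 and 0.198 in cluster 1, against 0.0474 in the neutrophil-like cells and 0 in cluster 10. Il12a led cluster 11 at 1.02 per 10000, but its 9 UMIs all lay in 1 cell of 4631 UMIs, so that call describes 1 cell.

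**Figure D2:**
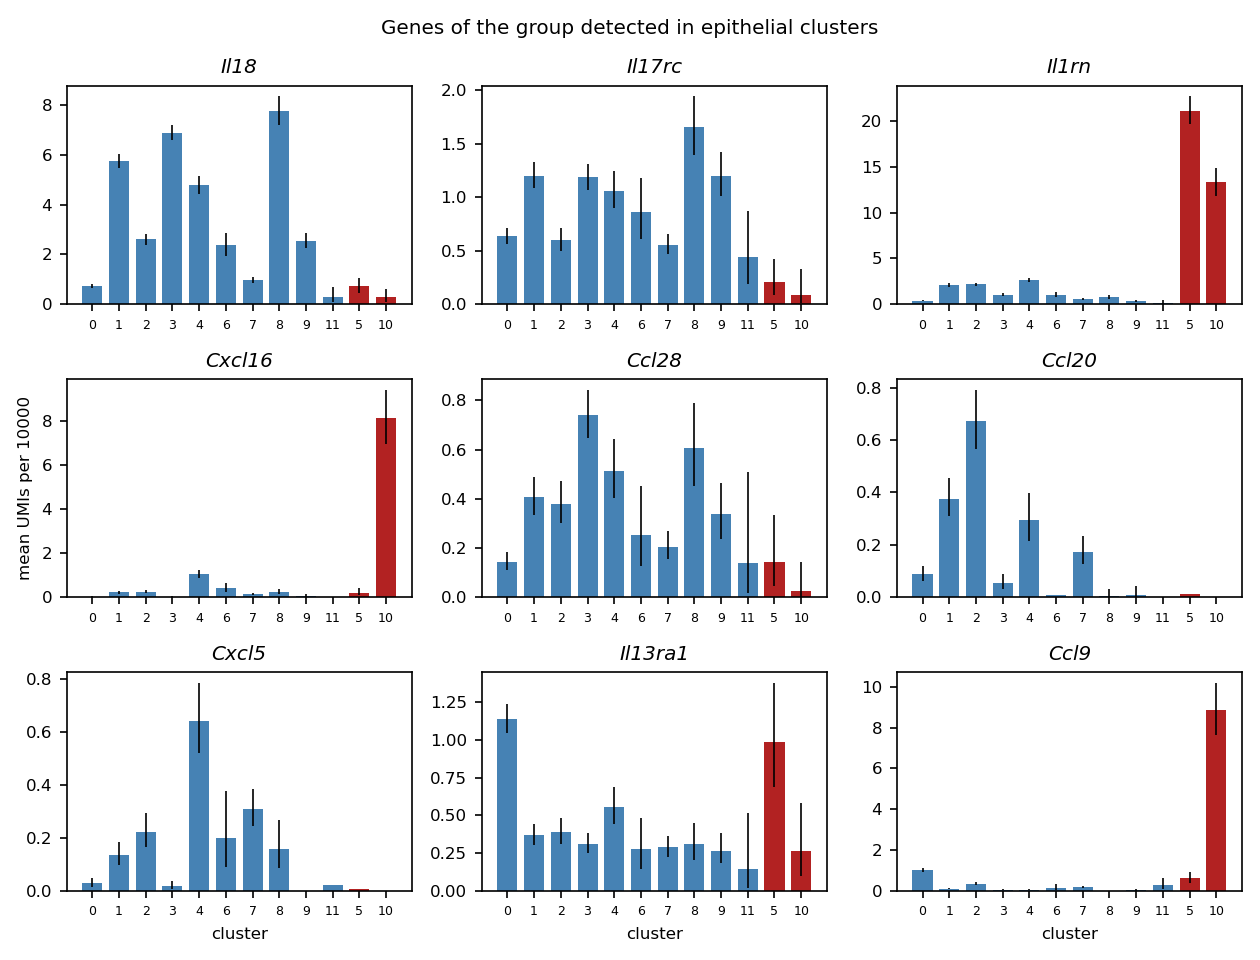
Level of 9 genes found in epithelial clusters, in mean UMIs per 10000 on a linear axis, with the clusters other than 5 and 10 in blue and clusters 5 and 10 in red at the right. Bars start at 0 and lines are Poisson 95% intervals. Il18 reaches 7.75 in cluster 8, against 0.712 in cluster 5, while Cxcl16 and Ccl9 are highest in cluster 10 with low blue bars in clusters 4 and 0.

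Across all 12 clusters Cxcl2, Il1b, Ccl5, Ccl6 and Cxcr2 had distinct orders. For Cxcl2 the levels in clusters 5, 10 and 2 had intervals that did not meet, the next 4 (clusters 11, 6, 0 and 7) each overlapped their neighbour, and cluster 9 was lowest at 0.366. For Il1b the order was 5, 10, 2, 11 and 0 with no overlap between neighbours, and all neighbours from cluster 3 down to cluster 4, the lowest at 0.135, overlapped. For Ccl5, cluster 10 stood apart and the other clusters could not be ordered, since each rested on few or no UMIs. For Ccl6 the first 3 places, clusters 0, 5 and 10, did not overlap. For Cxcr2, cluster 5 stood apart, and the places from cluster 3 down to cluster 8 overlapped their neighbours. These places rested on few UMIs. The exact numbers were 4 in cluster 3 and 1 in cluster 2, where the intervals took about 18 and 7 and are too narrow.

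**Figure D3:**
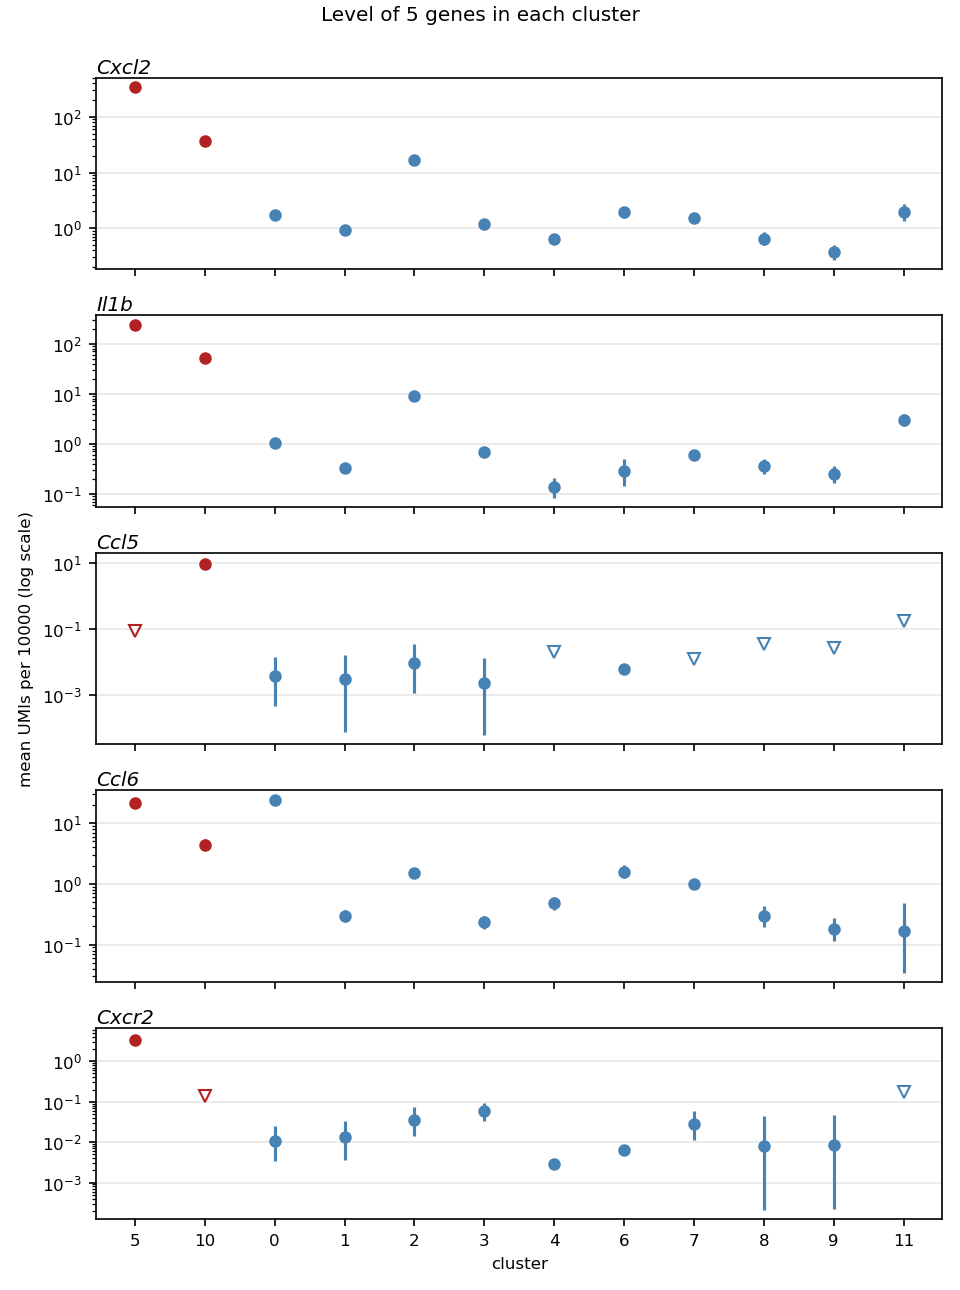
Level of Cxcl2, Il1b, Ccl5, Ccl6 and Cxcr2 in each cluster, in mean UMIs per 10000 on a log axis, with clusters 5 and 10 in red. Points are means, lines are Poisson 95% intervals from approximate UMIs where at least 1 was estimated, and open triangles mark the level that 0 allows. Cxcl2 and Il1b have high points in clusters 5, 10 and 2, whereas Ccl5 has 1 high point, in cluster 10 at 9.64.

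The genes outside the group whose pattern over the 12 clusters was most like each of these 5 were found by Pearson's r of the log2 level with 0.1 added, among genes at 1 or more per 10000. The clusters share libraries and the r is a description. The patterns most like that of Cxcl2 were those of Lilr4b (r = 0.978), Srgn (0.974) and Nr4a3 (0.974), and those most like Il1b were Fxyd5 (0.990), Tyrobp (0.984) and Lst1 (0.982). Ctsw, Ms4a6b and Pld4 each had an r that rounded to 1 with Ccl5, and all were near 0 outside cluster 10. Stfa1 (0.990), Ptgs2os2 (0.990) and Gm37691 (0.986) were most like Cxcr2. Ccl6 had looser matches, with Zfp36l1 at 0.920, Lfng at 0.886 and Adrbk1 at 0.821.

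Clusters 10 and 2 both held genes that were highest in the neutrophil-like cells, in different company. Of the 85 genes, 17 were highest in the neutrophil-like cells at 1 or more per 10000. In cluster 10 these 17 stood at a median of 11.1% of their cluster 5 level, with Il1a at 77.8%, Il1rn at 62.7%, Ccl4 at 46.6%, Il1b at 22.0% and Cxcl2 at 10.6%. The 7 neutrophil markers other than Ly6g, left out after its values were seen because it was higher in clusters 1, 3, 4 and 8 than in the neutrophil-like cells, had a median of 0.0307% there, and 11 of the 17 genes exceeded every one of them, the highest being Clec4d at 7.23%. S100a8 in cluster 10 was 3 UMIs in 3 cells and S100a9 was 4 UMIs in 4 cells. In cluster 2 the 17 genes stood at a median of 4.53%, with Il1r2 at 5.5%, Ccr1 at 5.48%, Cxcl2 at 4.96%, Ccl3 at 4.47% and Il1b at 3.68%. The 7 neutrophil markers there had a median of 3.12% and a range of 1.74% to 8.53%. Of the 17 genes, 8 lay inside that range, 4 below it, Cxcr2 at 1.02% among them, and 5 above it. The Cxcr2 value was 1 UMI in 1 cell of 814 UMIs. The genes above the range were Il10rb at 41.8%, Cxcl1 at 20.9%, Ccl4 at 10.2%, Il1rn at 10.2% and Il15 at 9.24%. In cluster 2 the neutrophil markers moved with these genes, and their part in the levels there was not tested.

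**Figure D4:**
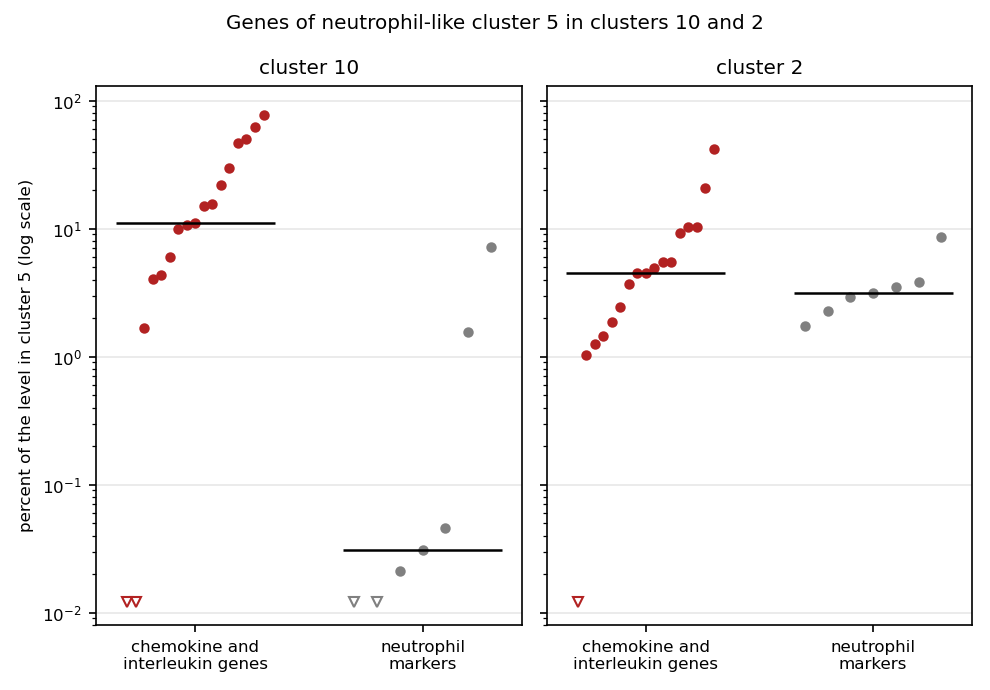
Level in clusters 10 (left panel) and 2 (right panel) as a percent of the level in neutrophil-like cluster 5, on a log axis. Each point is 1 gene, with 17 chemokine, interleukin and receptor genes at the left of each panel, 7 neutrophil markers without Ly6g at the right, lines at the medians and open triangles for values of 0. In cluster 10 the medians are 11.1% and 0.0307%, and in cluster 2 they are 4.53% and 3.12%.

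The arithmetic of the averages also gave the cells behind scarce values. A mean that rests on few cells equals a sum of whole UMIs over known cell totals, and this was solved for 266 of the 671 values above 0, of which 139 rested on 1 cell, 64 on 2 and 63 on 3 or more. Cells are named here by their UMI total. Cells of equal total would be read as 1 cell, so a cell is a reading of the arithmetic and not a barcode. Only genes found in at most 5 cells of clusters 10 and 11 could be solved, so that the genes named here lay in few cells follows from the method, and deep cells held markers of several kinds. The cell of 20417 UMIs held 70 of 71 Ccl1 UMIs, 16 of 18 Il6 UMIs and 4 of 6 Il1rl1 UMIs, together with 8 of 24 UMIs of the mast cell gene Ms4a2 and 14 of 18 UMIs of the mitosis gene Ube2c. The cell of 6157 UMIs held 5 of 7 Il4 UMIs, the only Il17rb UMI and 1 of 2 Il12rb1 UMIs, together with 4 of 11 Cd3d and 5 of 16 Cd3g UMIs, T cell genes. The cell of 11837 UMIs held all 3 Il18rap UMIs and the other Il12rb1 UMI, together with 9 of 18 Klrd1 and 5 of 13 Nkg7 UMIs, genes of NK and cytotoxic T cells. Ccl24 lay in the cells of 8927 (40 of 61 UMIs), 18462 (17) and 8336 (4), and Cxcl14, with 36 UMIs in all, had 17 in the cell of 18462, 12 in the cell of 15994 and 6 in the cell of 8927. The cell of 18462 also held all 23 Fcgbp UMIs of the cluster, and the cell of 15994 held 6 of 11 Cxcl10 and 5 of 11 Cxcl1 UMIs. Ccl22 and Ccr7, genes of migrating dendritic cells, had 4 of 7 and 3 of 5 UMIs in the cell of 6484. Ccl7 lay in 2 cells, with 24 of 35 UMIs in the cell of 7045 and 11 in the cell of 10774. The cluster means of Ccl1, Ccl7 and Ccl24, counted above as leading in cluster 10, therefore rested on 2, 2 and 3 cells.

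**Figure D5:**
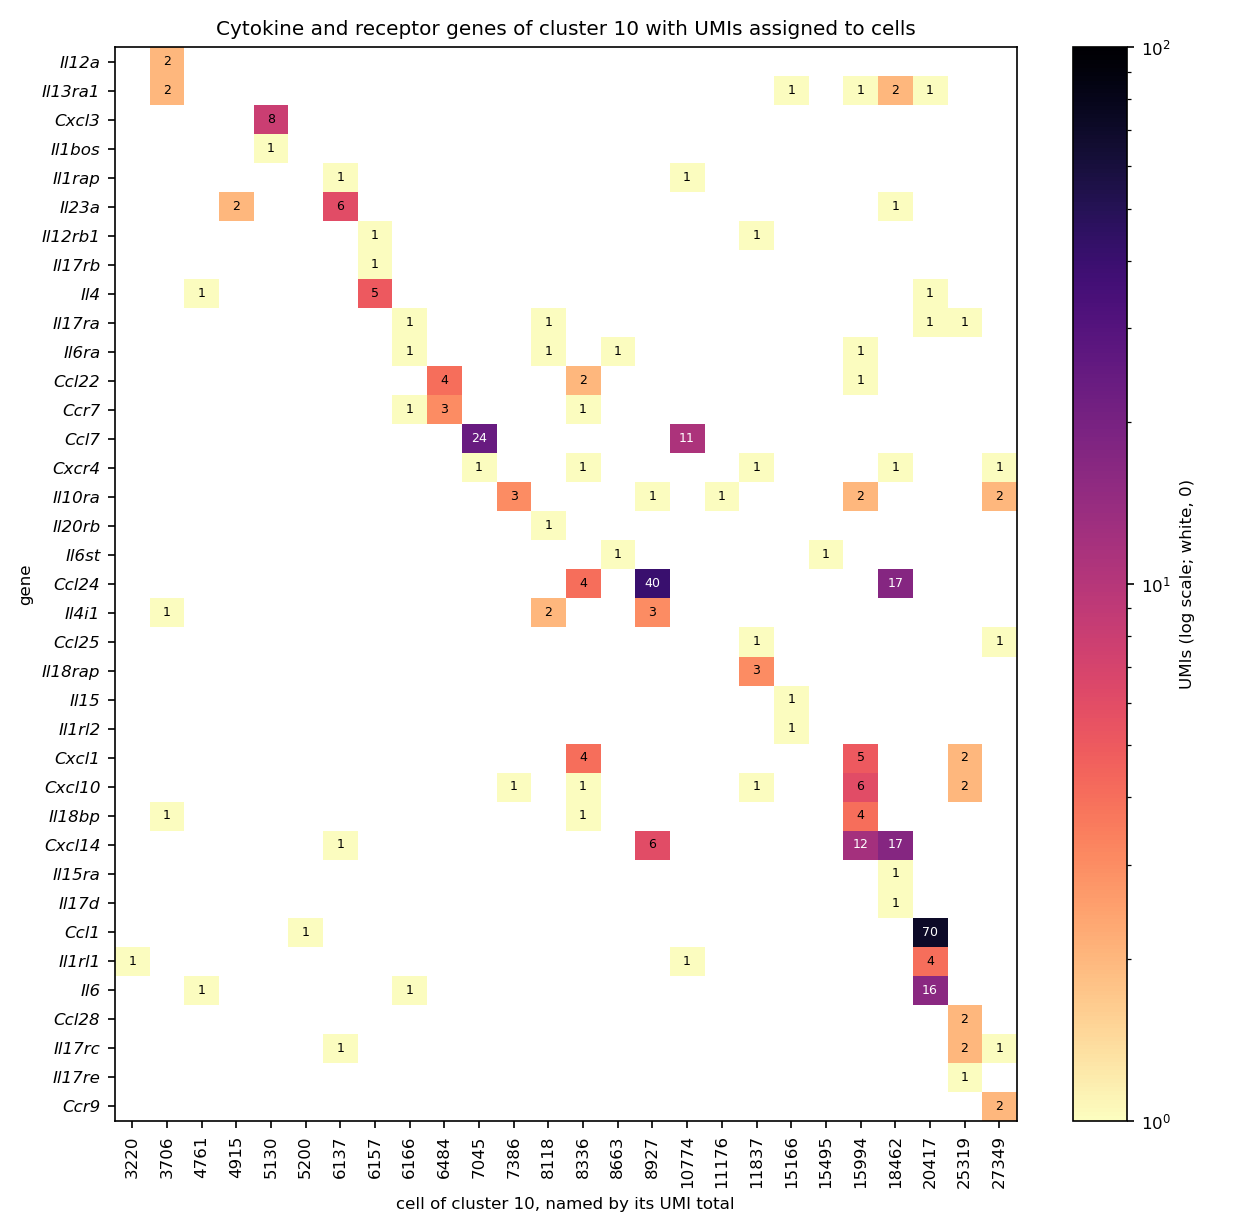
UMIs of 37 genes of the group (rows) in the 26 cells of cluster 10 to which they were assigned (columns, named by UMI total), with the number printed and coloured on a log scale and white for 0. Ccl1 and Il6 sit in the cell of 20417 UMIs with 70 and 16 UMIs, Il4 in the cell of 6157 with 5, and Ccl24 in 3 cells. Genes found in more than 5 cells could not be assigned. Ccl5 and Il1b were not solved, so the number of cells behind them is not known and they are not shown.

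Outside cluster 10, single cells with leukocyte genes stood in clusters of other types. In cluster 6, 1 cell of 2260 UMIs held 32 of 33 Ccl2 UMIs and all 3 Il4 UMIs, together with all 171 Mcpt1, all 63 Mcpt2 and all 4 Fcer1a UMIs of the cluster, mast cell genes. In the proliferating-like cells, 1 cell of 10418 UMIs held the only Il4, Il1rl1, Ccl17 and Il2rg UMIs, together with all 10 Cpa3 and 9 of 10 Fcer1a UMIs. In the enteroendocrine-like cells, 1 cell of 8457 UMIs held 48 of 49 Il1b UMIs and 30 of 32 Cxcl2 UMIs, together with 88 of 89 S100a8 and 90 of 92 S100a9 UMIs. Without it, Il1b in the enteroendocrine-like cells stood at 0.039 per 10000, against 3.02 with it, and Cxcl2 at 0.0813, against 1.94. The fourth places of the enteroendocrine-like cells in the orders of Cxcl2 and Il1b therefore rested on that cell. In that cell, Il1b made up 56.8 per 10000 and Cxcl2 35.5, against 241 and 343 in the neutrophil-like cells, and S100a8 made up 104, against 427.

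Genes of the signalling pathways around these cytokines were read from lists chosen by function. Of 12 NF-kappaB feedback and target genes, 10 were 2-fold or more over the average of the remaining clusters in the neutrophil-like cells (against 5.13% of all genes), with a list median of 1.97 log2 units (all genes -0.26), and 7 in cluster 10 (against 5.77%), with a median of 1.12 (all genes -0.14). Nfkbia, the inhibitor induced by NF-kappaB, was at 73.8 in the neutrophil-like cells and 21.9 in cluster 10, against 1.3 to 6.78 elsewhere, Nfkbiz was at 10.3 in the neutrophil-like cells and Tnfaip3 at 3.63. Of 12 other inflammatory cytokines, 7 were at least 2-fold higher in the neutrophil-like cells (against 5.13% of all genes) and 4 in cluster 10 (against 5.77%). Osm, oncostatin M, was at 6.3 in the neutrophil-like cells and 0.764 in cluster 10, while Tgfb1 was highest in cluster 10 at 5.59, against 1.61 in the neutrophil-like cells, and Mif was highest in the proliferating-like cells at 7.9. Of 14 genes of IL-1 and toll signalling, 4 were at least 2-fold higher in the neutrophil-like cells (against 5.13% of all genes) and 5 at least 2-fold lower (against 19.4%). Nlrp3, the inflammasome sensor, was at 9.75 in the neutrophil-like cells, whereas Pycard, its adaptor, was at 1.54 there and 11.6 in cluster 3, and Casp1, the protease that matures IL-1 beta and IL-18, was at 0.526 in the neutrophil-like cells and 2.05 in cluster 4. Of 14 JAK-STAT and SOCS genes, 6 were at least 2-fold higher in the neutrophil-like cells (against 5.13% of all genes), with Socs3 at 4.3, against 3.64 in cluster 10 and at most 0.375 elsewhere. Jak1, a kinase of cytokine receptors, was at 1.16 in the neutrophil-like cells and 0.531 in cluster 10. Of 6 genes of IL-17 signalling, 4 were at least 2-fold higher in the neutrophil-like cells (against 5.13% of all genes), among them Lcn2 at 6.65, Cebpb at 2.48 and Cebpd at 1.99. Of 8 G protein regulators of leukocytes, 5 were at least 2-fold higher in cluster 10 (against 5.77% of all genes; list median 1.74) and 4 in the neutrophil-like cells (against 5.13%; list median 1.27), with Rgs1 at 26.3 in cluster 10, against 0.13 in the neutrophil-like cells, and Rgs2 at 10.4, against 5.24. Gnai2 was at 3.65 in cluster 10 and 3.23 in the neutrophil-like cells. A further 9 genes were listed beside the chemokines but fall outside the name rule. Among them Ccrl2, a chemerin-binding receptor, was at 34.9 in the neutrophil-like cells and 3.81 in cluster 10, against at most 0.974 elsewhere. The chemokine Xcl1 was at 1.28 in cluster 10. Cmtm6, on that list but neither a chemokine nor a chemokine receptor, was at 1.16 in the neutrophil-like cells.

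Ligands and receptors could be set side by side by cluster. Of 14 pairs measured, 5 had ligand and receptor highest in the same cluster and 9 in different clusters. Cxcl2 and Cxcl1 shared the neutrophil-like cells with Cxcr2, as Ccl3 did with Ccr1, and Ccl2 shared cluster 10 with Ccr2. The pairs in different clusters were those of Il1b with Il1r1, Il18 with Il18r1, Il33 with Il1rl1, Il15 with Il15ra, Il4 with Il4ra, Il11 with Il11ra1, Il6 with Il6ra, Ccl25 with Ccr9 and Ccl28 with Ccr10. Several of these places rested on 1 cell. Il1r1 in cluster 11 and Il11 in cluster 6 were 1 UMI each. Il18r1 in cluster 9 and Ccr9 in cluster 10 were 2 UMIs each, and Ccr10 in cluster 6 was 17 UMIs. For these pairs the cluster of the highest level is not settled. Overlapping intervals also leave the places of Il15ra and Il6ra unsettled. For Il15ra, cluster 6 (0.064 to 0.328) overlapped the neutrophil-like cells (0.0315 to 0.296), which had the most Il15. For Il6ra, the neutrophil-like cells (0.213 to 0.654) overlapped cluster 10 (0.0308 to 0.437), which had the most Il6. Il4ra in the neutrophil-like cells exceeded its level in cluster 10, the place of Il4, by 1.3-fold. The count of 9 is therefore not firm, and the split was not set against a background. RNA of a ligand and a receptor in the same cluster does not show that either protein was made or met the other.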

How the data were processed

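Single-cell RNA-seq of 2 libraries was processed by the authors with Cell Ranger 3.1.0 and Seurat 2.3 on mm10, per the submitters' processing notes. The deposited signal is a mean per gene and cluster, which the values show to be UMIs scaled to 10000 per cell, averaged over the cells of both libraries. Both the clustering and the averaging are the authors'. How doublets, cell filters and strand were handled is not stated in the labels. Reads of overlapping genes, antisense genes and near-identical relatives (Ccl3 and Ccl4, Ccl27a and Il11ra1, Il1b and Il1bos) may be shared.

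Cell numbers, cell UMI totals and whole UMIs behind small averages were solved from the decimals (relative tolerance 1e-12 for a whole value), in Python 3.11.15 with numpy 2.4.6, scipy 1.17.1 and pandas 2.3.3. Tested on simulated data, this gave the right cell number for 12 of 12 clusters. Of the totals it recovered, 2380 of 2380 were true, and of the values it resolved, 681 of 687 were. Totals and values that it did not find are not in these counts. Approximate UMIs use the harmonic mean of a cluster's totals and miss the exact number where UMIs sit in deep or shallow cells. Exact numbers are given for the cells named above, while all intervals use the approximate numbers, also where the exact one was solved.

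The genes and lists were chosen with earlier results of these data known. Genes were named as the 5 given ones, the 30 with the largest level, up to 3 per further role and the top 3 of each list; any others were chosen after their values were seen. Fold, level minimum, pseudocount, set of clusters and cells were varied. Some genes of the group and lists are counted but not reported by name here.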

Additional observations from a re-analysis of the deposited data

How the results depend on the processing

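Of the settings tried, the number of genes leading a cluster moved most with the level minimum: with no minimum, and with a minimum of 0.1 per 10000, 41 genes led a cluster against 25, and 21 led cluster 10 against 10. Shares over all genes were not recomputed under these or the other settings varied here. The changed counts therefore have no background and describe the settings only. Counting only the 32 genes at 1 or more, 17 of 32 were highest in cluster 5 against 27 of 85, 10 of 32 in cluster 10 against 25 of 85, and 27 of 32 in either against 52 of 85, a larger share. The same share among all genes at that level was not computed, so the rise is not a result about the group. The median difference of cluster 5 turned to 0.16 log2 units, against -0.06, when only genes at 0.1 or more were kept, so its sign is not settled. That of cluster 10 was 0.82, against 0.17, when set against the median of the other clusters. With a pseudocount of 1, the log2 ratio to the next cluster was 3.40 for Ccl5 (6.48) and 2.06 for Cxcr2 (4.48), and with none it was 10 and 5.89. With median in place of harmonic mean totals, approximate UMIs were 13411 for Cxcl2 (12254), 9412 for Il1b (8600), 243 for Ccl5 (207) and 18645 for Ccl6 (11421). Without the cell of 8457 UMIs, a setting chosen after seeing the data, Il1b and Cxcl2 in cluster 11 were 0.039 and 0.0813. Without cluster 10, 18 genes led a cluster, 16 of them cluster 5, and without values resting on 1 cell 24 did. Of all values recomputed, 47 stayed within a set limit of the main value, 16 were labelled as moved and 1 turned sign. The limit was a fold for counts, a log2 difference for medians, and the counting interval for ratios and UMI numbers. The cause of these shifts was not tested beyond what each setting changes by construction. No paired analysis was possible because the columns name no library, and for the same reason neither library could be left out. The 31 cells of cluster 10 and 19 of cluster 11, and the shallow cells of cluster 5, limit what their scarce genes can show.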
